A study of Mus musculus with 8 samples.

Results

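The interferon-inducible p200 genes, also called the HIN-200 or PYHIN family, form a cluster of similar copies on mouse chromosome 1. The members described are the rows of the deposited gene table named Ifi203, Ifi204, Ifi205, Ifi207, Ifi208 and Ifi211, which are 6 of 30445 rows. They were picked by name with the difference between the groups already known from earlier work on these data, so their own group differences are given as a description without a test. All 6 had enough counts to enter the fit of 17787 tested genes. In the libraries labelled Mertk knockdown, the summed level of the 6 genes was lower than in wildtype, while Ifi208 alone ran the other way.

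The study profiled hearts by poly(A) RNA sequencing to ask how the macrophage receptor MERTK acts in pressure-overloaded hearts and how type I interferon enters into it. The 2 groups were 4 libraries labelled Mertk knockdown and 4 labelled wildtype. Both groups were c57 mice 8 weeks after transverse aortic constriction, an operation that narrows the aorta and so raises the load on the left ventricle, so the controls carried the operation too and no unoperated heart was analysed here. The labels state neither how Mertk was lowered or in which cells, nor whether each library was a separate mouse; the spread between libraries may therefore be technical in part.

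p200 proteins carry a HIN domain that binds DNA, and most also carry a pyrin domain through which proteins of inflammation assemble. They are nuclear or cytosolic sensors and transcriptional regulators, best known from macrophages and other leukocytes, and their genes are switched on by type I and type II interferon through the interferon-stimulated response element, a promoter sequence bound by interferon-activated transcription factors. In mouse heart muscle the family is best known for p204, the product of Ifi204, which binds cardiac transcription factors and Id proteins and promotes differentiation of cultured mouse cells into cardiac myocytes.

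Because response elements are what ties these copies to interferon, the promoter sequences around that element are shown for the 4 members that lie in the 2 sets of like windows described after them, with the 2 other p200 genes closest to Ifi208. The RefSeq promoter table (GRCm38.p6) holds 5 of the 6 members and has no entry for Ifi204. The 250 bases before each start were searched on both strands for the core of the element, which is GAAA, any 2 bases and GAAA again. It was present in all 5 members with an entry and in 4 of 6 other p200 genes with one, compared with 2.98% of the 32851 promoters in the table. The gamma-activated site TTCNNNGAA, which is found in 7.02% of those promoters, had no match in any of the p200 promoters of that length. A match is a run of letters and not a measured binding site. Each window below is 60 bases on the strand of its gene, and the capitals mark the core.
Ifi208, chr1:173673567-173673626, plus strand: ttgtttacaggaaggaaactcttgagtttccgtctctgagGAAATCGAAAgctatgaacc
Ifi213, chr1:173599326-173599385, minus strand: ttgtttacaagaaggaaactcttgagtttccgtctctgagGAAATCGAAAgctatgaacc
Ifi206, chr1:173491339-173491398, minus strand: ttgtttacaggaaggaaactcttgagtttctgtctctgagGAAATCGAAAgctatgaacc
Ifi207, chr1:173741831-173741890, minus strand: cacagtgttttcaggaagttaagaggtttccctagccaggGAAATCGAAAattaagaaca
Ifi211, chr1:173913064-173913123, minus strand: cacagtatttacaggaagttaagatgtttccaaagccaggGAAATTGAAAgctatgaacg
Ifi205, chr1:174031870-174031929, minus strand: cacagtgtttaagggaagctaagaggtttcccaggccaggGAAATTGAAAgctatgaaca

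The 6 windows shown, chosen for their likeness, fell into 2 sets. All are lined up on the core, so its fixed letters match in every pair by construction. The window of Ifi208 was identical to that of Ifi213 at 59 of 60 bases and to that of Ifi206 at 59 of 60, and Ifi206 and Ifi213 matched each other at 58. Ifi205 and Ifi211 shared 52 of 60 bases, Ifi207 shared 50 with each of them, and Ifi208 shared 32 with Ifi207 and 34 with Ifi205 and with Ifi211. The core lay 58 bases before the start in Ifi208, 41 in Ifi207, 37 in Ifi211 and 134 in Ifi205, all on the strand of the gene. For Ifi203 a core lay 35 bases before the second of its 2 starts in the table and the first start had none. That window of Ifi203, not shown, was the same as the window of Mndal at 60 of 60 bases and shared 41 with Ifi208 and 30 with Ifi207.

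The copies are alike over their transcripts as well, and this limits how far single rows can be told apart. All transcripts of GENCODE M21, which has the same build as the deposited coordinates (mm10), were cut into 150-base windows, the length of 1 read. The deposited start and end match M21 for every p200 row except Mndal. Of the windows of Ifi211, 46.4% also occurred in a transcript of another gene, mainly Ifi205 (32.3%) and Ifi204 (14.1%). The share was 12.6% for Ifi205, 6.77% for Ifi204, 1.5% for Ifi208 and 0.827% for Ifi203, and no window of Ifi207 occurred elsewhere. Of the windows of Ifi208, 1.21% were shared with Ifi206 and 0.288% with Ifi213. The sources used here do not state how reads with several matches were counted, so the row of Ifi211 is the least certain of the 6.

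Total counts were 63378755 to 68762911 in the labelled Mertk knockdown libraries and 59287621 to 71571173 in the wildtype libraries. Mertk, the targeted gene, had 12.79, 12.31, 10.58 and 11.78 CPM in the labelled Mertk knockdown libraries and 11.02, 10.39, 10.5 and 12.29 CPM in wildtype (CPM, counts scaled to a common library size with TMM factors). Its log2 fold change, here and below Mertk knockdown minus wildtype, was 0.10 (SE 0.11; edgeR gave an adjusted p = 0.7663, and a two-sided exact permutation test on log2 CPM gave p = 0.2571, and 0.02857 is the smallest it can give). The whole-gene count of Mertk therefore did not fall with the label, and every direction given is that of the labels. Hepatocyte marker transcripts (14 genes summed) stood at 251.2 to 305.1 CPM in the 4 labelled Mertk knockdown libraries and 302.6 in wildtype replicate 1. In wildtype replicates 2 to 4 they stood at 52.22 to 63.6 CPM. Fga, a fibrinogen chain made by liver, was at 0 in wildtype replicates 2 and 4. All 14 had a log2 fold change above 0 and 0 were called by edgeR, beside 0.647% of all tested genes. At an unadjusted p under 0.05, 3 were higher, beside 12.4% of all tested genes in either direction. Atrial markers (7 genes summed) were 735.5 CPM in labelled Mertk knockdown replicate 4, 413.6 in wildtype replicate 3 and 273.9 in wildtype replicate 4, and at most 48.08 in the other 5 libraries. Markers of heart muscle were abundant in every library (45860 to 51380 CPM in the labelled Mertk knockdown group and 32220 to 44470 in wildtype).

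Over the whole table edgeR's quasi-likelihood test called 115 genes at an adjusted p under 0.05, 49 higher and 66 lower in the labelled Mertk knockdown libraries, or 0.647% of those tested (0.275% higher and 0.371% lower). Of the 6 members, 1 was past that threshold as higher and 3 as lower, and nothing is read from this count since the same contrast chose them. The groups did not overlap for 5 members, against 8.07% of tested genes in either direction (4.18% higher and 3.9% lower). DESeq2 called 3.73% of the genes it tested (1.65% higher and 2.07% lower) and had 1 member past its threshold as higher and 4 as lower. The median log2 fold change was −1.03 over the 6 members and 0.00 over all tested genes.

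Ifi208 (ENSMUSG00000066677, chromosome 1, 173673675 to 173698395, plus strand) was the member that was higher. It had 107, 85, 170 and 199 counts in labelled Mertk knockdown replicates 1 to 4, and 18, 9, 4 and 18 in wildtype replicates 1 to 4. On the CPM scale these were 1.614, 1.284, 2.664 and 2.92 in the labelled group and 0.2839, 0.1358, 0.0694 and 0.2444 in wildtype. Every labelled Mertk knockdown library lay above every wildtype one, including wildtype replicate 1, which shares the hepatocyte transcripts. The log2 fold change was 3.51 (SE 0.47), an 11.38-fold higher level, and rests on wildtype counts of which the lowest, 4, is next to the floor of 3 counts. Ifi208 had the smallest level of the 6 in both groups, at 0.369 ± 0.145 FPKM in the labelled group and 0.0297 ± 0.0178 FPKM in wildtype (FPKM, fragments per kilobase of transcript scaled to library size; mean ± SD, n = 4 each).

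**Figure D1:**
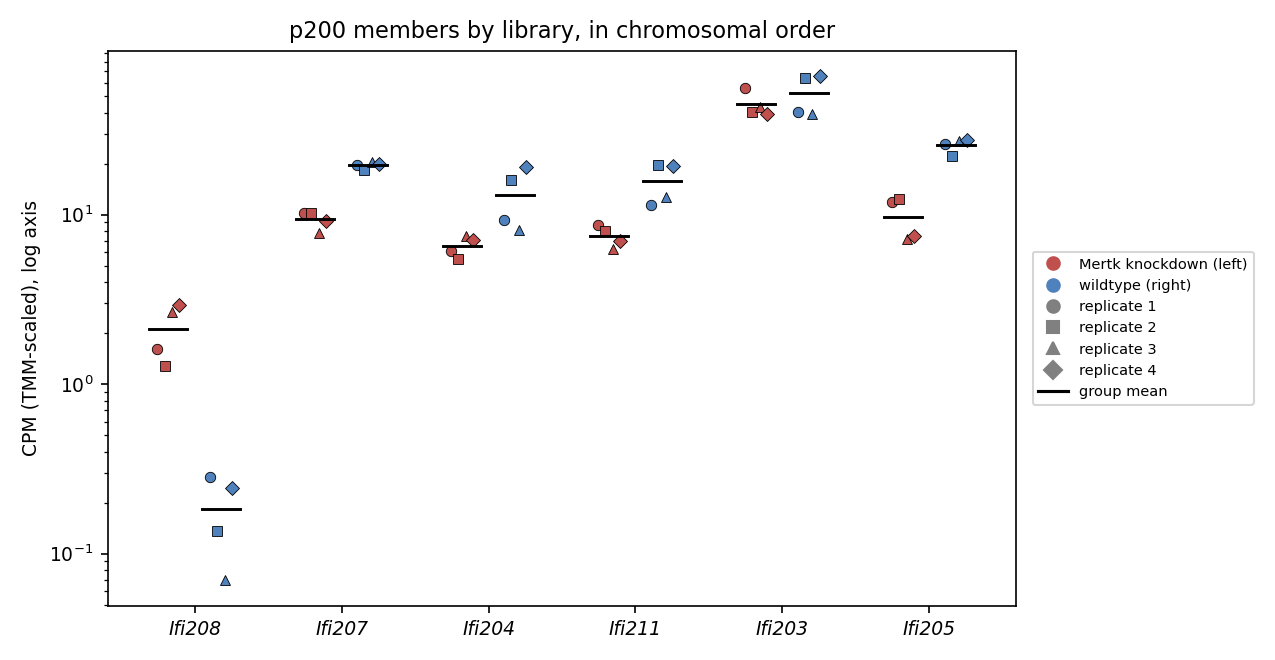
Level of each p200 member in every library (TMM-scaled CPM on a log axis; labelled Mertk knockdown left and wildtype right within each gene, marker shape giving the replicate number, bars the group means). The groups are apart for 5 members and overlap for Ifi203, and Ifi208 alone is higher in the labelled Mertk knockdown libraries (1.284 to 2.92 CPM against 0.0694 to 0.2839 CPM).

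Ifi207 and Ifi205 were lower in the labelled Mertk knockdown libraries and nearly level within wildtype. Ifi207 (ENSMUSG00000073490, chromosome 1, 173723427 to 173741747, minus strand), a nuclear PYHIN protein linked to cytokine transcription in mouse macrophages, had 10.28, 10.25, 7.819 and 9.142 CPM in the labelled libraries and 19.6, 18.26, 20.33 and 19.87 CPM in wildtype. The wildtype values span only 1.11-fold and lie about 2.08-fold above the labelled group (log2 fold change −1.06, SE 0.11). Ifi205 (ENSMUSG00000054203, chromosome 1, 174011998 to 174031810, minus strand), whose product controls expression of the inflammasome adaptor ASC in mouse macrophages, had 11.91, 12.35, 7.223 and 7.469 CPM in the labelled libraries and 26.27, 22.12, 27.2 and 27.51 CPM in wildtype. Its wildtype libraries span 1.24-fold and its labelled libraries 1.71-fold, with labelled replicates 1 and 2 above 3 and 4, and the groups are apart (log2 fold change −1.40, SE 0.19). In both genes wildtype replicate 1 sits with the other wildtype libraries.

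Ifi211 and Ifi204 differed more among the wildtype libraries. Ifi211 (ENSMUSG00000026536, chromosome 1, 173896345 to 173913046, minus strand) had 8.641, 8.019, 6.299 and 7.029 CPM in the labelled Mertk knockdown libraries and 11.42, 19.55, 12.65 and 19.44 CPM in wildtype, so wildtype replicates 2 and 4 were high and replicates 1 and 3 nearer to the labelled group. Its log2 fold change was −1.07 (SE 0.20). Ifi204 (ENSMUSG00000073489, chromosome 1, 173747293 to 173766943, minus strand), the p204 gene, had 6.137, 5.497, 7.49 and 7.131 CPM in the labelled libraries and 9.257, 16.02, 8.102 and 19.06 CPM in wildtype. The groups were apart, by less than the spread within wildtype, and the log2 fold change was −0.999 (SE 0.265).

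Ifi203 (ENSMUSG00000039997, chromosome 1, 173920407 to 173942672, minus strand), which gave the most counts of the 6, did not separate the groups. It had 56.11, 40.19, 43.17 and 39.47 CPM in the labelled Mertk knockdown libraries and 40.13, 63.62, 39.33 and 65.78 CPM in wildtype, where replicates 2 and 4 were again the high ones. Its log2 fold change was −0.22 (SE 0.20).

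Per length, the group means did not follow the same order in both groups. This order between genes depends on the length used. The deposited counts and FPKM imply 7192 to 7748 bases for Ifi203, whose longest M21 transcript has 3754. For Ifi211 they imply 1915 to 2060 bases, and its longest M21 transcript has 1785. The order with transcript lengths was not tested. In the labelled Mertk knockdown libraries Ifi203 led with 6.08 ± 0.921 FPKM, followed by Ifi211 with 3.83 ± 0.443, Ifi207 with 2.50 ± 0.264, Ifi205 with 2.12 ± 0.562 and Ifi204 with 1.69 ± 0.267 (SD, n = 4 each). Ifi203 was above Ifi211, Ifi211 above Ifi207 and Ifi207 above Ifi205 within each of the 4 libraries, although the ranges of Ifi207 and Ifi205 over libraries overlap. Ifi205 was above Ifi204 in 2 of the 4, so that pair has no clear order. In wildtype Ifi211 led with 8.03 ± 2.53 FPKM, ahead of Ifi203 with 7.08 ± 2.25, Ifi205 with 5.56 ± 0.515, Ifi207 with 5.14 ± 0.22 and Ifi204 with 3.36 ± 1.49. Within wildtype libraries Ifi211 was above Ifi203 and Ifi207 above Ifi204 in 4 of 4, Ifi205 above Ifi207 in 3 of 4 and Ifi203 above Ifi205 in 2 of 4, and over libraries the ranges of each of these pairs overlap.

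Summed, because reads may move between copies, the 6 rows held 94.7, 77.6, 74.66 and 73.16 CPM in the labelled Mertk knockdown libraries and 107, 139.7, 107.7 and 151.9 CPM in wildtype. The mean was 80.03 ± 9.952 CPM in the labelled group and 126.6 ± 22.75 CPM in wildtype (SD, n = 4 each), the groups did not overlap, and the log2 fold change of the summed row was −0.66 (SE 0.14). In the 5 libraries with high hepatocyte markers it was −0.41, and with the hepatocyte score as a term −0.35. Without Ifi208 it was −0.70, and over all 13 p200 rows of the table −0.52, from sums of 117.4 to 140.3 CPM in the labelled libraries and 148.1 to 219.1 CPM in wildtype. The make-up of the sum shifted as well. Ifi203 gave 51.79% to 59.25% of the member counts in the labelled Mertk knockdown libraries and 36.52% to 45.54% in wildtype, and Ifi208 gave 1.654% to 3.991% in the labelled libraries and 0.06444% to 0.2654% in wildtype. The share of Ifi205 was 9.675% to 15.92% in the labelled libraries and 15.83% to 25.26% in wildtype.

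**Figure D2:**
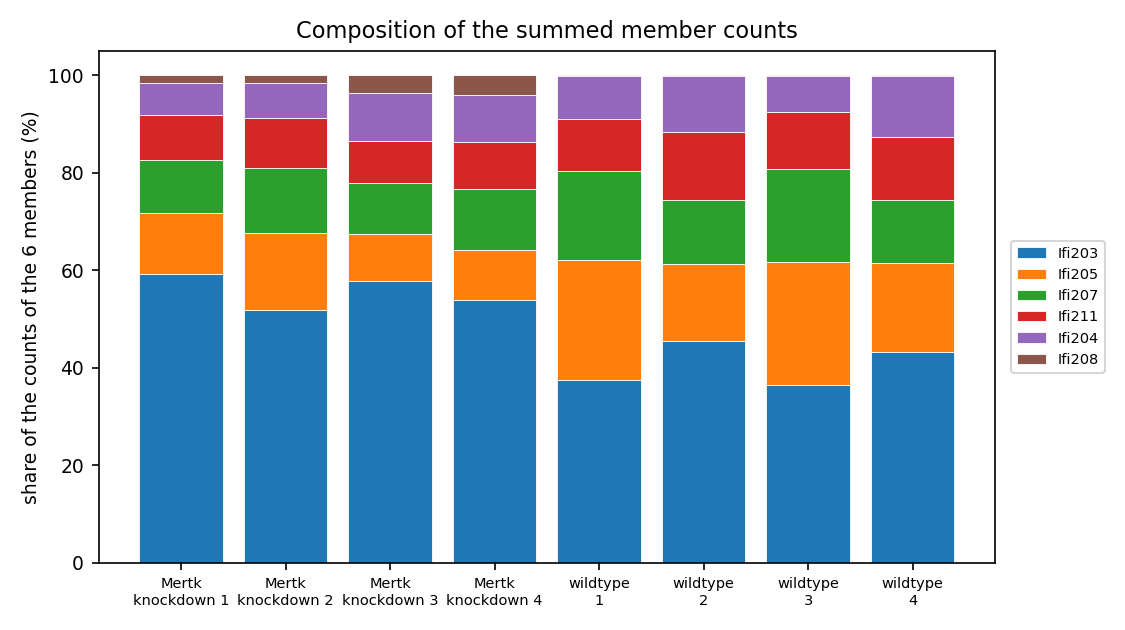
Share of each member in the summed counts of the 6 members (percent, stacked, 1 bar per library, labelled Mertk knockdown at the left and wildtype at the right). Ifi203 takes 51.79% or more in each labelled Mertk knockdown library and 45.54% or less in each wildtype one.

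The remaining rows of the family were tested as a list that is not part of the 6. Of the 7 such rows that the file lists, 6 were tested and 0 were called by edgeR over all genes (1 higher and 3 lower at an unadjusted p under 0.05, where 12.4% of all tested genes are in either direction); DESeq2 called 1, and 4 of the 6 had a log2 fold change below 0 (median −0.53). Ifi213, one of the 2 genes whose promoter window differs from that of Ifi208 at 1 base, had 3.302, 2.522, 3.385 and 3.551 CPM in the labelled libraries and 3.422, 9.414, 4.58 and 11.05 CPM in wildtype (log2 fold change −1.16, SE 0.35, edgeR adjusted p = 0.2046). It passed without wildtype replicate 1 (edgeR adjusted p = 0.04783) and in DESeq2 (adjusted p = 0.02003). Ifi206, the other, had 0.8294, 0.4984, 0.6424 and 1.467 CPM in the labelled libraries and 0.962, 2.882, 1.336 and 3.069 CPM in wildtype (log2 fold change −1.26, SE 0.46, edgeR adjusted p = 0.2934). In both, the high values were those of wildtype replicates 2 and 4, and the groups overlapped.

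Ifi209 had 1.663 ± 0.7505 CPM in the labelled group and 2.89 ± 0.8174 CPM in wildtype (−0.80 on the log2 scale, SE 0.33, edgeR adjusted p = 0.3638). Mndal, next to Ifi211, had 24.61 ± 2.872 CPM in the labelled group and 29.69 ± 7.176 CPM in wildtype (log2 fold change −0.27, SE 0.17, edgeR adjusted p = 0.5665). In M21 it runs to 173942491 and overlaps Ifi211 and Ifi203 on the same strand, while the deposited row ends at 173880187. Ifi203-ps, a pseudogene, had 11.36 to 17.31 CPM in the labelled libraries and 9.714 to 11.6 CPM in wildtype (log2 fold change 0.35, SE 0.14, edgeR adjusted p = 0.3251). Aim2, the family member that builds the inflammasome on cytosolic DNA, had 1.796 ± 0.7043 CPM in the labelled group and 1.517 ± 0.1639 CPM in wildtype (SD, n = 4 each; log2 fold change 0.24, SE 0.29, edgeR adjusted p = 0.8013). Ifi214 was too low to test, with at most 14 counts in any library. None of these 5 rows passed the test.

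**Figure D3:**
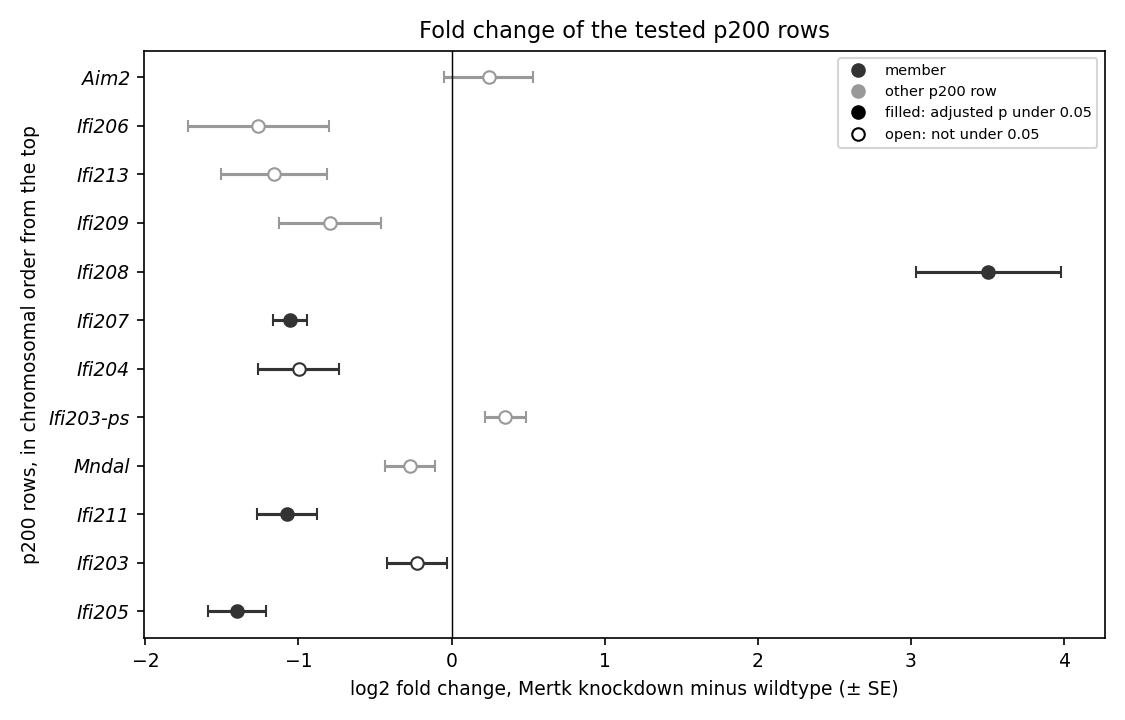
Log2 fold change, Mertk knockdown minus wildtype, with its SE for the 12 tested p200 rows, in chromosomal order from the top (dark, members; grey, other rows; filled, adjusted p under 0.05 in edgeR). Ifi208 at 3.51 stands between Ifi209 at −0.80 and Ifi207 at −1.06, its neighbours on the chromosome.

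**Figure D4:**
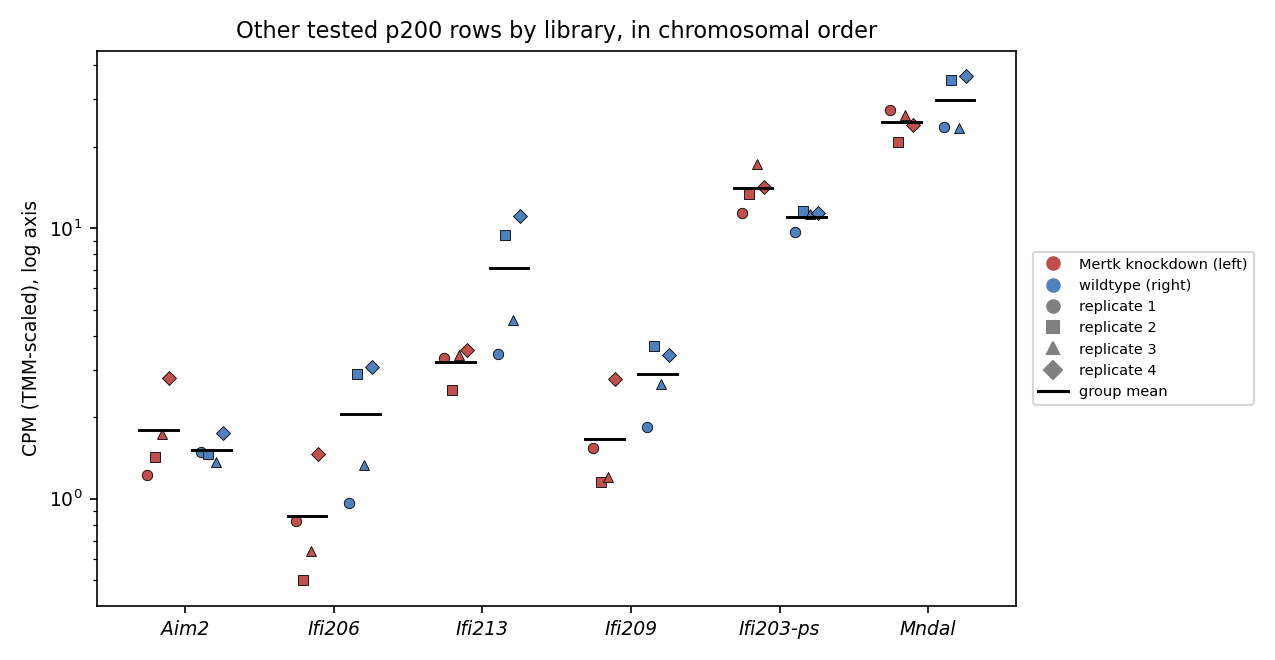
Level of the other 6 tested p200 rows in every library (TMM-scaled CPM on a log axis; labelled Mertk knockdown left and wildtype right, marker shape giving the replicate number, bars the group means). The groups overlap for each of the 6, and wildtype replicates 2 and 4 are the 2 highest for Ifi206, Ifi213, Ifi209 and Mndal.

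Genes that flank the cluster were not called in the fit reported, but they are too few for this to say much. Of 14 other rows that start within 1 Mb of the 6 members 6 were tested (median log2 fold change 0.74). By edgeR 0 were called, beside 0.647% of all tested genes. At an unadjusted p under 0.05 there were 0, beside 12.4% of all tested genes. DESeq2 also called 0, but gave no adjusted p for Fmn2 and Apcs. The groups did not overlap for 2 of the 6, Crp and Fmn2, against 8.07% of tested genes. The smallest p belonged to Fmn2, an actin nucleator (log2 fold change 1.19, edgeR adjusted p = 0.4425), and Crp, a liver acute-phase protein gene (2.13, edgeR adjusted p = 0.493). Crp and Apcs, both made by hepatocytes, stand beside the hepatocyte transcripts described above, and Apcs passed without wildtype replicate 1 (log2 fold change 4.88, edgeR adjusted p = 0.04251).

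Among genes of interferon signalling, Usp18 and Irf7 were lower in the labelled Mertk knockdown libraries. Irf7 is counted in the list of the next paragraph and is not 1 of the 16 genes counted here. Of 16 tested interferon receptors and transcription factors, 0 rose and 2 fell over all genes by edgeR (median log2 fold change −0.39), beside 0.275% higher and 0.371% lower of all tested genes. At an unadjusted p under 0.05, 2 were higher and 8 lower, beside 12.4% of all tested genes in either direction. Usp18, which restrains signalling at the interferon receptor, had 2.714, 3.443, 5.672 and 5.004 CPM in the labelled libraries and 9.935, 18.44, 11.21 and 19.35 CPM in wildtype. It fell by 1.81 on the log2 scale (SE 0.29, edgeR adjusted p = 0.03304). The groups did not overlap, and wildtype replicates 2 and 4 were its highest libraries, as they were for Ifi204, Ifi211 and Ifi203. Its call depended on single libraries: leaving out wildtype replicate 2, wildtype replicate 4 or any labelled Mertk knockdown replicate gave an edgeR adjusted p between 0.05845 and 0.1073.

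Of 14 tested partners of the DNA-sensing and inflammasome pathways in which p200 proteins act, 0 rose and 1 fell (edgeR, median log2 fold change −0.20; 0 higher and 2 lower at an unadjusted p under 0.05), beside the same shares of all genes. This was Irf7, which amplifies type I interferon production, with 10.96, 11.28, 18.38 and 15.5 CPM in the labelled libraries and 60.78, 73.49, 54.46 and 84.49 CPM in wildtype (log2 fold change −2.28, SE 0.20, edgeR adjusted p = 0.001251). Sting1, an adaptor gene (0.16, edgeR adjusted p = 0.8926), the ASC gene Pycard (0.53, edgeR adjusted p = 0.4993) and Casp1 (−0.56, edgeR adjusted p = 0.4495) did not pass. Zbp1 had the largest change of this list (−2.49, SE 0.71, edgeR adjusted p = 0.2075). It did not pass either, and its groups overlapped. Of 11 tested partners of p204 and cardiac regulators, 0 rose and 1 fell by edgeR (median log2 fold change −0.19), again beside 0.371% of all tested genes called lower. At an unadjusted p under 0.05, 0 were higher and 2 lower, beside 12.4% of all tested genes in either direction. Cdkn1a, the cell cycle inhibitor p21, had 22.43 ± 4.664 CPM in the labelled group and 50.18 ± 5.447 CPM in wildtype (SD, n = 4 each; log2 fold change −1.16, SE 0.15, edgeR adjusted p = 0.00962). Cardiac factors that p204 binds, Gata4 (0.09, edgeR adjusted p = 0.7963), Nkx2-5 (0.00, edgeR adjusted p = 0.9914) and Tbx5 (−0.26, edgeR adjusted p = 0.7716), did not pass. The Id genes Id1 (−0.28, edgeR adjusted p = 0.4923), Id2 (−0.09, edgeR adjusted p = 0.932) and Id3 (−0.37, edgeR adjusted p = 0.157) did not pass. The groups did not overlap for Id3, as for 8.07% of tested genes.

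Patterns were compared with 12194 tested genes outside the family that had a mean of at least 1 CPM. Genes with a predicted, clone, pseudogene or Rik name were left out. The genes closest in pattern were found by the root mean square difference of centred log2 CPM over the 8 libraries. This is a description in which group difference and spread within groups both count. Nearest to Ifi204 were Oas1b (0.081), Il4ra (0.141) and Eif2ak2 (0.146), of which Oas1b and Eif2ak2 belong to antiviral families induced by interferon. Nearest to Ifi211 were Samhd1 (0.112), an interferon-induced restriction factor, Ly6c2 (0.169) and Tsc22d3 (0.179), and to Ifi203 Slfn5 (0.102), Mad2l1bp (0.106) and Dck (0.106). Nearest to Ifi207 were Hand2 (0.112), a cardiac transcription factor, Nt5e (0.143) and Mt1 (0.173), and to Ifi205 Bcl2l1 (0.171), Xdh (0.213) and Rab4a (0.214). None of the genes compared came close to Ifi208, where Aplnr (0.707), Apln (0.855) and Tmem267 (0.867) were nearest.

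The members differed in how their values moved when libraries that stand apart were left out. In the 5 libraries with high hepatocyte markers, where wildtype replicate 1 is the lone wildtype library and is assumed to vary like the labelled ones, the log2 fold changes of Ifi208, Ifi207 and Ifi205 were 2.90, −1.06 and −1.42, while those of Ifi211, Ifi204 and Ifi203 were −0.60, −0.49 and 0.17. Adding the hepatocyte score to the model gave 3.17, −1.08 and −1.44 for those first 3 and −0.52, −0.32 and 0.26 for the other 3. Because the hepatocyte markers were low only in wildtype replicates 2 to 4, this model also leans on wildtype replicate 1. No member was past the threshold in either fit. Without the 3 libraries with high atrial markers they were 3.14, −0.99 and −1.20 and then −1.01, −0.98 and −0.15, again with 0 past the threshold. Markers of macrophages, in which the family is well expressed, summed to 274.9 to 325.4 CPM in the labelled Mertk knockdown libraries and 299.7 to 474.3 CPM in wildtype. All 16 had a log2 fold change below 0 (median −0.40), and 0 were called by edgeR (6 at an unadjusted p under 0.05, as were 12.4% of all tested genes). Wildtype replicates 2 and 4 had the highest sums (435.5 and 474.3 CPM). Within wildtype, these 2 libraries were also the highest for fibroblast and heart muscle markers, but not for lymphocyte, neutrophil or endothelial ones. Fibroblast markers (9 genes summed) were at 2648 and 1953 CPM in wildtype replicates 2 and 4, and at 1307 and 1427 CPM in wildtype replicates 1 and 3. Their sums in the labelled libraries were 1435 to 1963 CPM. Lymphocyte markers (13 genes summed) were at 8.847, 3.032, 4.563 and 5.73 CPM in wildtype replicates 1 to 4. In the labelled libraries the lymphocyte sums were 3.291 to 8.833 CPM. Neutrophil markers summed to 4.701 to 7.128 CPM in the labelled libraries and 12.78 to 17.61 CPM in wildtype, with no overlap. Ly6g and Mmp8 were too low to test, and all 6 tested had a log2 fold change below 0. Of these, 1, Lcn2, was called (−1.28, edgeR adjusted p = 0.03298), beside 0.371% of all tested genes called lower. At an unadjusted p under 0.05, 4 of the 6 were lower, beside 12.4% of all tested genes in either direction. Endothelial markers summed to 755.4 to 918.6 CPM in the labelled libraries and 616.6 to 710.1 CPM in wildtype. This sum and that of the heart muscle markers given above were higher in every labelled library than in any wildtype one. Gene by gene, the groups did not overlap for 4 of 10 endothelial and 2 of 9 heart muscle markers, against 8.07% of tested genes. The log2 fold change was below 0 for 1 endothelial and 2 heart muscle markers. In either list 0 were called by edgeR (6 of 10 endothelial and 2 of 9 heart muscle markers at an unadjusted p under 0.05, beside 12.4% of all tested genes). Whether these markers have a part in the values of the p200 genes was not tested, and in bulk tissue fewer cells of a type cannot be told apart from less RNA per cell.

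**Figure D5:**
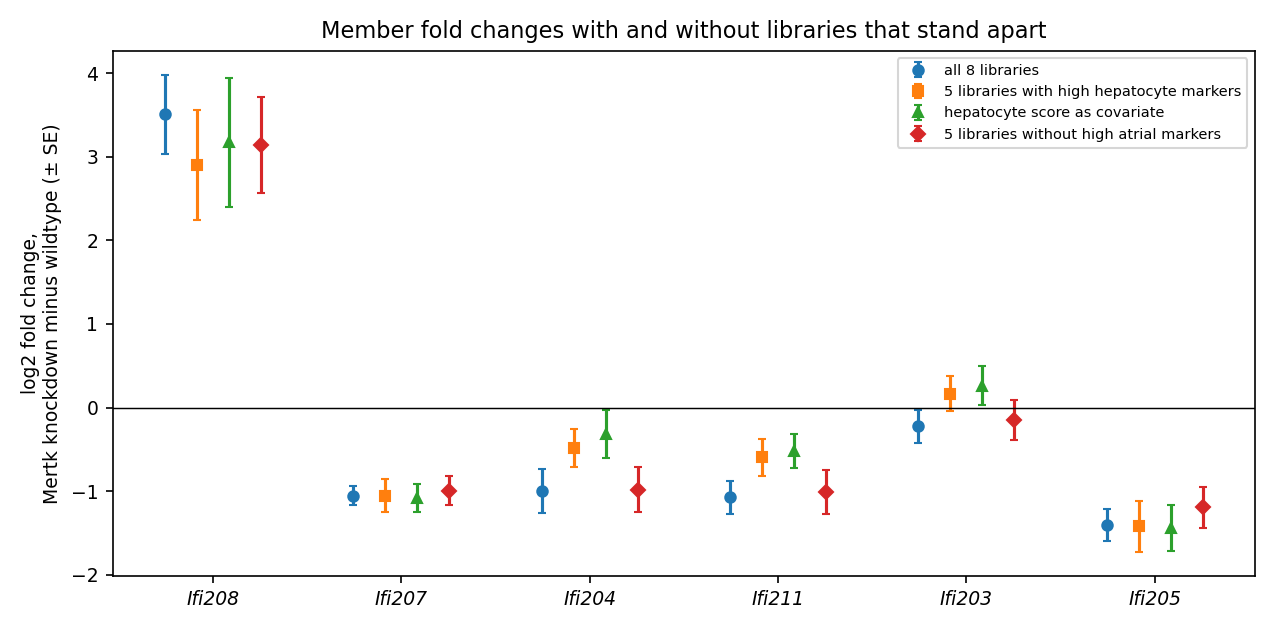
Log2 fold change of each member, Mertk knockdown minus wildtype, with its SE, in all 8 libraries, in the 5 with high hepatocyte markers, with the hepatocyte score as a covariate, and in the 5 without high atrial markers. Ifi207 stays between −0.99 and −1.08 and Ifi205 between −1.20 and −1.44, while Ifi203 changes sign, at −0.22 with all libraries and 0.26 with the covariate.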

How the data were processed

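Poly(A) RNA of hearts was sequenced in 8 libraries, 4 labelled Mertk knockdown and 4 wildtype. The authors deposited whole-number counts per gene and FPKM for each library, per the file headers. The submitters' processing notes name build mm10 and the tools HISAT2 2.2.1, cutadapt 1.9, edgeR, StringTie 2.1.6 and DESeq2, without a role or order. Libraries were strand-marked with dUTP, per the labels' protocols; whether counting used strand, how reads with several matches were counted and which annotation release was used are not given in the sources used here.

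The members and gene lists were chosen with earlier results of these data known. Counts were tested with edgeR 4.0.16 (R 4.3.3; TMM, filterByExpr, glmQLFit with robust = TRUE, glmQLFTest, two-sided, no covariate), adjusted by Benjamini-Hochberg over 17787 genes and called under 0.05. The SE is the log2 fold change divided by the square root of F. FPKM were tested with limma 3.58.1 on log2(FPKM + 1) and log2(FPKM + 0.1) as alternatives, and DESeq2 1.42.0, other scaling, no filter, a replicate block and left-out libraries were tried too. On counts simulated for this comparison, the edgeR fit called 49 of 93 genes changed 2-fold, 74 of 94 changed 4-fold and 5 of 17092 unchanged ones. Each gene was simulated independently, without shared library differences such as those in hepatocyte or atrial markers, so these rates may not hold for the real libraries. Log CPM used a prior count of 2. Named genes were the members, all p200 rows, Mertk, the called genes of each pathway list or of the flanks (otherwise the 2 with the smallest p) and the 3 nearest genes in pattern per member. Other genes were chosen after their values were seen. No library was a copy of another of its group (chi-square over degrees of freedom of 37.89 to 198.7). A count of 3 is 0.04074 to 0.05205 CPM; this floor covers counting error only. A called gene of the pathway lists is counted but not reported here by name.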

Additional observations from a re-analysis of the deposited data

Results flagged for a closer look

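In 82 groups of 4 libraries, those of 41 named genes and sums, 2 held a library that stood apart from the other 3 by more than Dixon's 95% critical value, which chance exceeds in about 1 group in 20. The pseudogene Ifi203-ps had 9.714 CPM in wildtype replicate 1, below 11.31 to 11.6 CPM in the other wildtype libraries. Cdkn1a had 58.28 CPM in wildtype replicate 2, above 46.63 to 48.35 CPM in the other wildtype libraries.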

How the results depend on the processing

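The direction of Ifi204, Ifi205, Ifi207, Ifi208 and Ifi211 was kept in all 18 alternatives run. Of these 18, Ifi207 was past the threshold in 15, Ifi205 in 14, Ifi208 in 13, Ifi211 in 5, Ifi204 in 1 and Ifi203 in 0. Since the same contrast chose the members, this is a description and no support. On the log2(FPKM + 1) scale, which understates low genes, Ifi208 had 0.40.

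The number of genes called over the table, 115 in the fit reported, was 604 with DESeq2 (3.73% of its 16206 tested genes), 70 and 69 with limma on log2(FPKM + 1) and log2(FPKM + 0.1), 24 with the replicate block, 42 in the libraries with high hepatocyte markers, 22 with the hepatocyte covariate and 6 without the libraries with high atrial markers; it was 44 to 265 with 1 library left out, the highest without wildtype replicate 1. Members past the threshold, 4 as reported and read as a description only, were 2 on log2(FPKM + 1), 1 with the replicate block and 0 in each of the 3 fits on hepatocyte or atrial markers, and 3 to 4 with 1 library left out. The other p200 genes called, 0 as reported, were 1 with DESeq2 and 0 to 1 with 1 library left out; flanking genes called were 0 to 1, and 0 within 2 Mb. The 4 called genes of the pathway lists became 2 with either FPKM fit, 1 with the high-hepatocyte libraries or the covariate, 0 without the atrial ones and 2 to 4 with 1 library left out. The log2 fold change of the summed members was −0.66 in DESeq2 and −0.75 to −0.56 with 1 library left out (−0.73 without wildtype replicate 1). The log2 fold change of Mertk was 0.065 to 0.16 with 1 library left out. The cause of these shifts was not tested; fits on 5 libraries also have fewer samples.

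Signs turned, with no call in either fit, for Ifi203 (0.17 in the high-hepatocyte libraries, 0.26 with the covariate), Mndal (0.069 and 0.15), Apcs (−0.46 and −0.29), Slfn5 (0.27 and 0.34), Mad2l1bp (0.023 and 0.13), Dck (0.14 and 0.24), Ifi213 (0.044 with the covariate) and Aim2 (−0.051 without labelled Mertk knockdown replicate 4 and −0.0057 without the atrial libraries, −0.051 to 0.39 with 1 library left out). Replicate numbers are shared between the groups, and whether they pair the libraries is not known. Deviations of same-numbered libraries correlated at 0.0615, 6.3e-05, −0.00646 and 0.181. Libraries with different numbers were not compared in this way, so these values cannot decide on pairing. Counts of 4 to 18 for Ifi208 in wildtype set the precision of its fold change.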
